A study of Mus musculus with 4 samples.

Results

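Integrin subunits were followed as 10 genes, 6 alpha chains (Itga1, Itga4, Itga6, Itgae, Itgal and Itgav) and 4 beta chains (Itgb1, Itgb2, Itgb3 and Itgb7), chosen by gene symbol among the 32285 genes of the files. Single-cell RNA libraries had been made with a 10x Genomics 5' kit from thymic cells sorted as CD3+ CD1d.PBS57+, that is, invariant natural killer T (iNKT) cells, whose T cell receptor recognises glycolipids on CD1d. There were 2 libraries of BALB/c mice and 2 libraries of B6 mice. The labels give the strain, the tissue and the sort, and no treatment, allele, age or sex. Separate mice or sorts behind the 2 libraries of a strain are not stated, so a p-value below measures the spread between libraries, which may be technical.

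Integrins are adhesion receptors made of 1 alpha and 1 beta chain, and neither chain reaches the cell surface in quantity without a partner. Itgal pairs with Itgb2 to form LFA-1, which binds ICAM proteins. Itgae encodes the alpha chain CD103 and pairs with Itgb7. That pair, called the CD103 integrin below, binds E-cadherin on epithelium. Itga4 pairs with Itgb1 (VLA-4, a receptor for VCAM-1 and fibronectin) or with Itgb7 (a receptor for MAdCAM-1 in the gut). Itga1 and Itga6 pair with Itgb1 into receptors for collagen and laminin, and Itgav pairs with several beta chains, Itgb1 and Itgb3 among them. Thymic iNKT cells are usually divided into iNKT1, iNKT2 and iNKT17 cells, which carry the transcription factors T-bet, high PLZF and RORγt, and into an early iNKT0 stage.

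RefSeq promoter windows on GRCm38.p6 were matched by symbol for 5 of the 10 genes (Itga1, Itga4, Itgav, Itgb1 and Itgb7). Windows are shown for the collagen receptor pair Itga1 and Itgb1, which shared their highest class, and for Itga4 and Itgb7, whose strain calls lay in different classes. Each window holds the 250 bases before the start that RefSeq gives, 5′ to 3′ on the gene's strand, and capitals mark matches to a Runx motif (TGTGGT or ACCACA) or a T-box motif (GGTGTG or CACACC).
Itga1: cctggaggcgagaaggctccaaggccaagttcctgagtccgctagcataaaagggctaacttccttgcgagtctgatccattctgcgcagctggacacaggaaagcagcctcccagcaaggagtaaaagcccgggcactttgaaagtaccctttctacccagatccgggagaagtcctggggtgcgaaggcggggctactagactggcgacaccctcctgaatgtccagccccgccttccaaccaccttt
Itgb1: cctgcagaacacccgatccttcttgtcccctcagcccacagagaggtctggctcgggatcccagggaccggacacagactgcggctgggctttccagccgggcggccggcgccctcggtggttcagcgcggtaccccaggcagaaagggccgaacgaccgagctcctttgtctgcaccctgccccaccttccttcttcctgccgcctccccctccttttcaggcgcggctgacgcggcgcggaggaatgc
Itga4: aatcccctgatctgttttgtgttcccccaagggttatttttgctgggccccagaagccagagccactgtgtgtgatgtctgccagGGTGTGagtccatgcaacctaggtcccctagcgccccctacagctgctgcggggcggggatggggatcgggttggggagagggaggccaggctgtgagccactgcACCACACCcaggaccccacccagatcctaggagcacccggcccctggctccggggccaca
Itgb7: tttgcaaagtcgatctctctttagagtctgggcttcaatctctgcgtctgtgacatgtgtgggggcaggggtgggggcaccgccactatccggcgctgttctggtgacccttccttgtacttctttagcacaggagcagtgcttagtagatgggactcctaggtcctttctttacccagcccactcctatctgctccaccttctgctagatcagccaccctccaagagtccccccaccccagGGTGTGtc
These windows lie at chr13:115101965-115102214 on the minus strand for Itga1, chr8:128685404-128685653 on the plus strand for Itgb1, chr2:79255176-79255425 on the plus strand for Itga4 and chr15:102231936-102232185 on the minus strand for Itgb7. The Itga4 window held 1 Runx match and 2 T-box matches, and the Runx match overlapped 1 of the T-box matches. The Itgb7 window held 1 T-box match, in the last bases of the window, which lie within the gene as its coordinates are given below. The Itga1 and Itgb1 windows held 0 matches to these letters. Over all 32851 windows of this length, 14.0% held the Runx motif and 16.3% held the T-box motif, so a match is common and marks no site by itself.

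The genes themselves, on GRCm38, lie at chr13:114953096-115101964 (Itga1), chr2:79255426-79333123 (Itga4), chr2:71745616-71858416 (Itga6), chr11:73090583-73147446 (Itgae), chr7:127296260-127335138 (Itgal) and chr2:83724397-83806916 (Itgav). The beta chains lie at chr8:128685654-128733200 (Itgb1), chr10:77530252-77565708 (Itgb2), chr11:104608000-104670476 (Itgb3) and chr15:102215995-102231944 (Itgb7). Itga4, Itga6 and Itgav thus share a chromosome with each other, as do Itgae and Itgb3.

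After filters on cells, 1864 and 1913 cells remained in the BALB/c libraries and 2328 and 8788 in the B6 libraries, with median depths of 11014 and 9128 UMIs in BALB/c against 7003.5 and 6932.5 UMIs in B6. A UMI is a tag that counts 1 captured RNA molecule once. Pairs of libraries shared between 4 and 31 kept cell barcodes. B6 2 stood apart in its processing, since its file header names Cell Ranger 7.1.0 and the other 3 headers name 6.0.0. The median log2 ratio of B6 2 over B6 1 was 0.42 in the fifth of genes with the longest introns and -0.07 in the fifth with the shortest. Cd3e, a chain of the T cell receptor complex, had 1158 and 1209 CPM (UMIs of the gene per 1000000 UMIs of the cells summed) in BALB/c and 1146 and 1200.0 CPM in B6 over all kept cells, and the PLZF gene Zbtb16 had 401 and 324 CPM in BALB/c and 167 and 386 CPM in B6. A cluster of 40 B cells was also present.

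Clusters were built without any integrin gene and named from marker lists that hold none. The iNKT1-like class held 283 and 612 cells in BALB/c against 1376 and 5137 cells in B6, and the iNKT2-like class held 884 and 704 cells in BALB/c against 216 and 1296 cells in B6. The iNKT17-like class held 321 and 183 cells in BALB/c against 68 and 162 cells in B6. The early iNKT0-like class held 107 and 119 cells in BALB/c against 93 and 184 in B6, and the double-positive thymocyte-like class held 154 and 169 cells in BALB/c against 163 and 307 in B6. Tbx21, the T-bet gene, averaged between 147 and 191 CPM in iNKT1-like cells of the 4 libraries. Il4 reached between 177 and 312 CPM in iNKT2-like cells, and Il23r between 161 and 362 CPM in iNKT17-like cells. The classes were not built from the same clusters in both strains: the iNKT2-like class of BALB/c came mostly from 1 cluster (873 of 884 and 688 of 704 cells) that held 69 of 216 and 33 of 1296 cells in B6. The summed level of 16 iNKT1 markers within iNKT2-like cells was 689 and 651 CPM in BALB/c and 1494 and 1481 CPM in B6. These 16 include Klrb1c and Ly6c2, which are polymorphic between the strains and were left out of naming. The part of this difference in the values below was not tested.

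The subsets differed in which integrin chains they carried. The order of levels was read over 6 classes, the 3 subsets, the iNKT0-like, the double-positive thymocyte-like and a proliferating class. An interferon-responding class, with 3 and 10 cells in BALB/c against 132 and 568 in B6, was left out because each BALB/c library had under 20 of its cells. Mean levels over the 4 libraries placed Itga1, Itgb1 and Itgb2 highest in iNKT1-like cells, Itgae, Itgb7, Itgb3 and Itgal highest in iNKT17-like cells, and Itga4, Itga6 and Itgav highest in double-positive thymocyte-like cells. For Itga1, Itga6, Itgav and Itgb7 the 4 libraries of the highest class all lay above those of the next class. For the other 6 the ranges of the highest 2 classes overlapped, so their order is not fixed beyond the spread of the libraries.

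**Figure D1:**
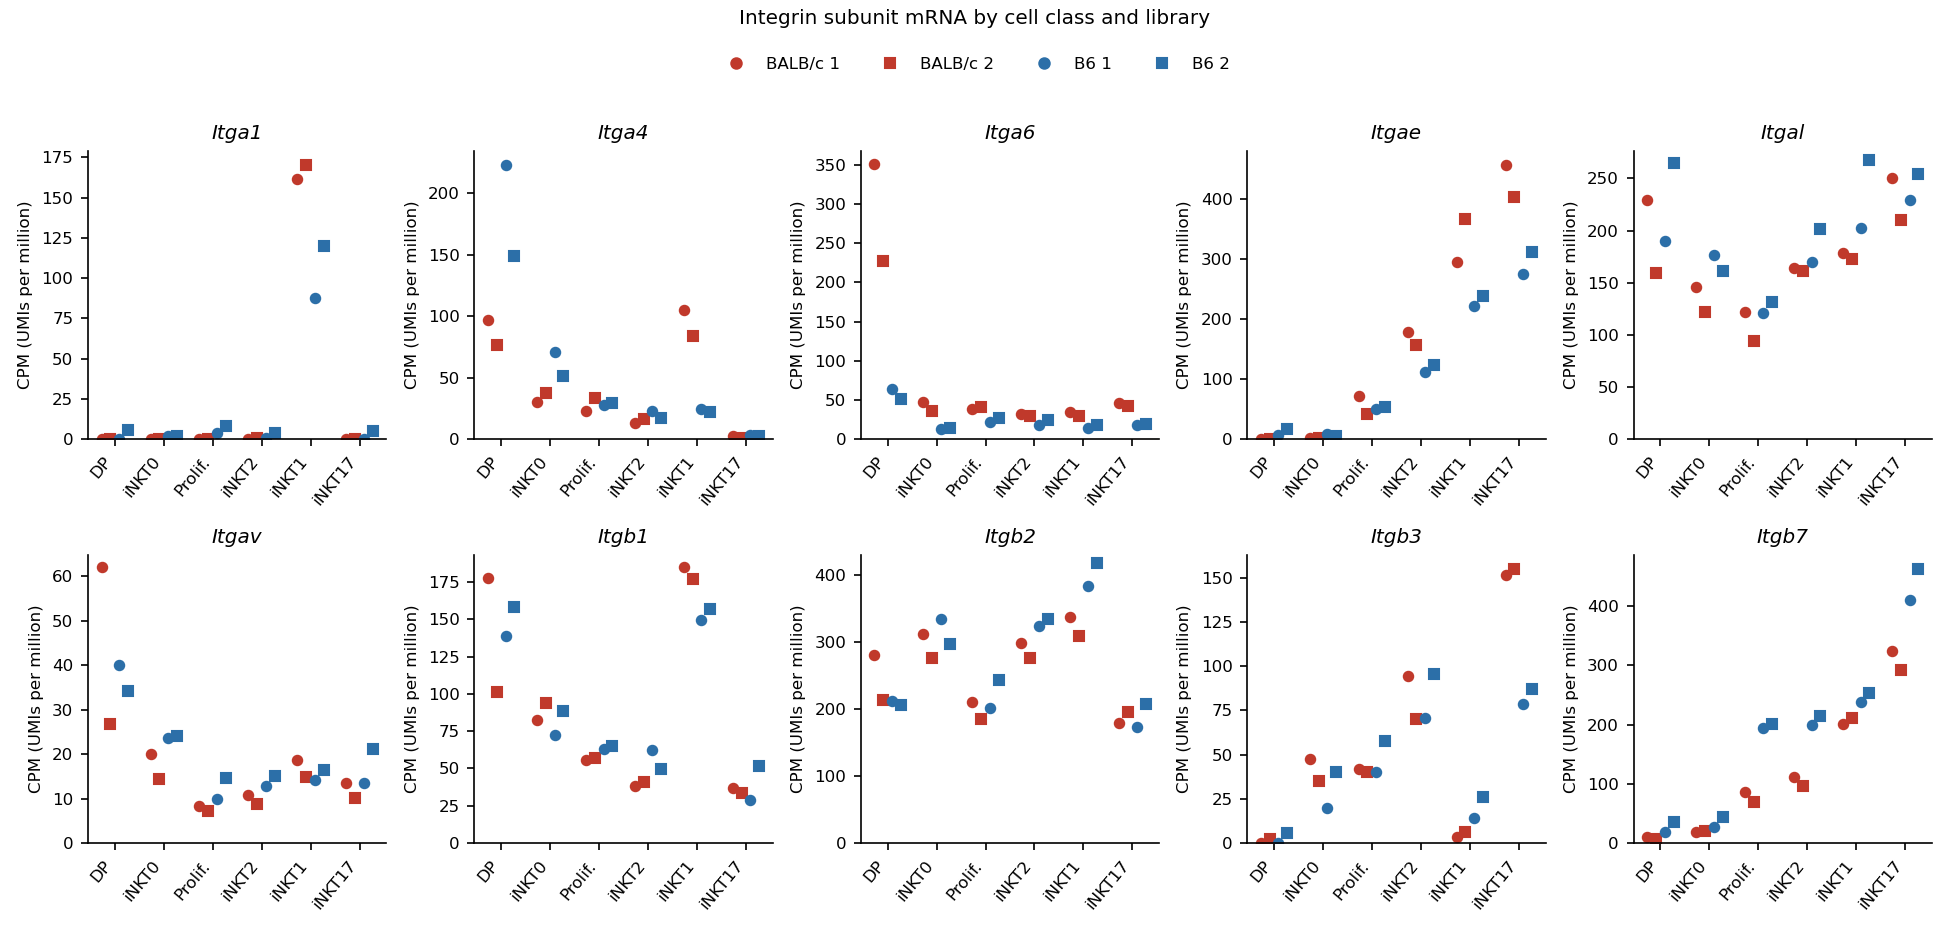
Level of each integrin subunit in CPM in each of the 6 classes, with 1 point per library, BALB/c left of B6. Of these classes, Itga1 is seen almost only in iNKT1-like cells, and Itgae and Itgb7 are high in iNKT17-like cells and low in iNKT0-like cells.

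The collagen receptor chains Itga1 and Itgb1 were both high in iNKT1-like cells. Itga1 had 162 and 170.3 CPM in BALB/c and 87.9 and 120.2 CPM in B6 iNKT1-like cells. Its UMIs in iNKT2-like cells numbered 0 and 7 in BALB/c against 3 and 73 in B6, or at most 3.55 CPM in any library. In iNKT17-like cells 0 UMIs of Itga1 were counted in BALB/c 1, BALB/c 2 and B6 1, and 10 UMIs in B6 2. Every iNKT1-like library thus lay far above every library of the other 2 subsets. Outside the 6 classes, the interferon-responding cells of B6 had 66.1 and 87.8 CPM of Itga1. The log2 difference was 6.53 ± 0.49 (SE) for iNKT1-like over iNKT2-like cells (edgeR quasi-likelihood, adjusted p = 1.18e-06) and -7.04 ± 0.72 for iNKT17-like over iNKT1-like cells (adjusted p = 1.54e-05), and iNKT17-like over iNKT2-like cells gave no call (-0.51, adjusted p = 0.846). Such fitted folds depend on the prior count where libraries are at 0.

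Itgb1, the common partner of Itga1, Itga4 and Itga6, had 185 and 177 CPM in BALB/c and 149.8 and 157 CPM in B6 iNKT1-like cells. In iNKT2-like cells it had 38.3 and 41.0 CPM in BALB/c and 62.5 and 49.5 CPM in B6. In iNKT17-like cells it had 37.0 and 33.7 CPM in BALB/c and 29.2 and 51.9 CPM in B6. The iNKT1-like libraries did not overlap those of the other subsets, and the log2 difference was 1.83 ± 0.15 over iNKT2-like cells (adjusted p = 2.08e-06). The iNKT17-like level lay below the iNKT1-like one by a log2 difference of -2.21 ± 0.18 (adjusted p = 2.13e-06), and was not called different from the iNKT2-like one (-0.38 ± 0.18, adjusted p = 0.133). Double-positive thymocyte-like cells averaged 144 ± 32.8 CPM (SD, n = 4 libraries), a range that overlapped that of iNKT1-like cells at 167 ± 16.7 CPM.

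Of the 6 classes, the chains of the CD103 integrin, Itgae and Itgb7, were highest in iNKT17-like cells and lowest in the early cells. Itgae had 456 and 403 CPM in BALB/c and 274 and 311 CPM in B6 iNKT17-like cells. It had 294 and 367 CPM in BALB/c and 221 and 238 CPM in B6 iNKT1-like cells, and 179 and 156 CPM in BALB/c and 112 and 123 CPM in B6 iNKT2-like cells. Within every library the order was iNKT17-like, iNKT1-like, iNKT2-like. Itgae exceeded its iNKT2-like level by 1.22 ± 0.08 log2 units in iNKT17-like cells (adjusted p = 7.63e-07) and by 0.97 ± 0.08 in iNKT1-like cells (adjusted p = 1.80e-06). The log2 difference of iNKT17-like over iNKT1-like cells was smaller, at 0.24 ± 0.08 (adjusted p = 0.0264). It lost its call without BALB/c 1 (adjusted p = 0.122), without B6 1 (0.0788) and without B6 2 (0.112). In iNKT0-like cells Itgae had 2.49 and 2.60 CPM in BALB/c and 9.09 and 5.67 CPM in B6. Outside the 6 classes, the interferon-responding cells of B6 had 289 and 286 CPM of Itgae, beside 274 and 311 CPM in B6 iNKT17-like cells.

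Itgb7, the beta chain of both the CD103 integrin and the MAdCAM-1 receptor, had 324 and 292 CPM in BALB/c and 411 and 464 CPM in B6 iNKT17-like cells. In iNKT1-like cells it had 201 and 212 CPM in BALB/c and 238 and 254 CPM in B6. In iNKT2-like cells it had 112 and 96.4 CPM in BALB/c and 199 and 214 CPM in B6. All 4 libraries of iNKT17-like cells lay above those of the other 5 of the 6 classes, whereas iNKT1-like and iNKT2-like ranges overlapped. The log2 difference over iNKT2-like cells was 1.20 ± 0.12 in iNKT17-like cells (adjusted p = 2.18e-05) and 0.61 ± 0.12 in iNKT1-like cells (adjusted p = 0.00116), and within each library both directions held. Over iNKT1-like cells it was 0.59 in iNKT17-like cells (adjusted p = 0.00221). The interferon-responding cells of B6, outside the 6 classes, had 256 and 293 CPM. Itgb7 averaged 27.9 ± 11.8 CPM in iNKT0-like and 18.1 CPM in double-positive thymocyte-like cells, so the early classes were low in both chains. The iNKT1-like call was lost without the library block (adjusted p = 0.0622).

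The LFA-1 chains Itgal and Itgb2 were present in every class and did not follow the same order. Itgal ranged between 210.3 and 254 CPM over the libraries of iNKT17-like cells, between 173 and 267 CPM in iNKT1-like cells and between 162 and 202 CPM in iNKT2-like cells. Its log2 difference was 0.33 ± 0.08 for iNKT17-like over iNKT2-like cells (adjusted p = 0.00972), and for iNKT17-like over iNKT1-like cells it was 0.10 without a call (adjusted p = 0.397). For iNKT1-like over iNKT2-like cells it was 0.23 ± 0.08 (adjusted p = 0.0287), a call lost without B6 1 (adjusted p = 0.108) and without B6 2 (0.107). Itgb2 took the opposite end in iNKT17-like cells, with 179.8 and 196 CPM in BALB/c against 174 and 208 CPM in B6. Its iNKT2-like levels were 298 and 277 CPM in BALB/c and 324 and 334 CPM in B6, and its iNKT1-like levels were 338 and 309 CPM in BALB/c and 384 and 418 CPM in B6. No iNKT17-like library reached the levels of the other subsets, and the log2 difference was -0.81 ± 0.07 against iNKT2-like (adjusted p = 8.52e-06) and -1.04 ± 0.07 against iNKT1-like cells (adjusted p = 7.89e-07). The small Itgb2 difference of iNKT1-like over iNKT2-like cells, 0.23 ± 0.07, lost its call without B6 2 (adjusted p = 0.0717).

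Itgb3, a partner of Itgav in the vitronectin receptor, was low in iNKT1-like cells and high in the other subsets. It had 152 and 155 CPM in BALB/c and 78.6 and 87.2 CPM in B6 iNKT17-like cells, and 94.7 and 70.2 CPM in BALB/c and 70.9 and 95.5 CPM in B6 iNKT2-like cells. In iNKT1-like cells it had 3.30 and 6.40 CPM in BALB/c and 14.2 and 26.1 CPM in B6. All iNKT1-like libraries were below all those of the other subsets. The log2 difference of iNKT1-like over iNKT2-like cells was -2.35 ± 0.34 (adjusted p = 0.000143) and that of iNKT17-like over iNKT1-like cells was 2.80 ± 0.37 (adjusted p = 0.000106), while iNKT17-like over iNKT2-like cells gave no call (0.44, adjusted p = 0.315). Itgb3 also pairs with Itga2b in platelets. The 4 platelet markers looked at were all at 0 in iNKT1-like and iNKT2-like cells of every library, and summed to at most 1.75 CPM in iNKT17-like cells. Itgav itself varied little among the subsets, between 8.88 and 21.2 CPM over their libraries, and averaged 40.7 ± 15.2 CPM in double-positive thymocyte-like cells, above iNKT0-like cells in 4 of 4 libraries. Its log2 difference of iNKT1-like over iNKT2-like cells was 0.39 ± 0.15 (adjusted p = 0.0399), which was not called without BALB/c 1 (0.33, adjusted p = 0.111), without BALB/c 2 (0.28, adjusted p = 0.163) or without B6 1 (0.47, adjusted p = 0.0562). Itgav was not called in iNKT17-like over iNKT2-like cells (0.18, adjusted p = 0.486) or over iNKT1-like cells (-0.21, adjusted p = 0.650).

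Itga4 and Itga6 averaged highest in the double-positive thymocyte-like cells. Itga4 had 97.0 and 76.3 CPM in BALB/c and 223 and 149 CPM in B6 double-positive thymocyte-like cells, and between 1.31 and 3.37 CPM in the libraries of iNKT17-like cells. Every iNKT17-like library lay below every library of the other 5 of the 6 classes. Against iNKT2-like cells the log2 difference was -3.22 ± 0.83 (adjusted p = 0.0117, and 0.0538 with classes by highest marker score), and against iNKT1-like cells -4.68 ± 0.74 (adjusted p = 0.000409). Itga4 was called higher in iNKT1-like than in iNKT2-like cells (log2 1.46 ± 0.39, adjusted p = 0.00875), and without BALB/c 2 this call was lost (1.11, adjusted p = 0.0685). This difference lay mainly in BALB/c, with 105 and 84.1 CPM in iNKT1-like against 12.96 and 16.1 CPM in iNKT2-like cells. In B6 the levels were 24.3 and 21.9 CPM against 22.9 and 17.6 CPM. Itga6, the laminin receptor chain, averaged 173 ± 143 CPM in double-positive thymocyte-like cells and between 24.2 and 31.8 CPM in each of the other 5 of the 6 classes, whose ranges overlapped. None of the 3 subset contrasts called Itga6, with log2 differences of -0.15 for iNKT1-like over iNKT2-like (adjusted p = 0.291), 0.16 for iNKT17-like over iNKT2-like (0.405) and 0.31 for iNKT17-like over iNKT1-like cells (0.0980).

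Counted over members, iNKT1-like over iNKT2-like cells gave 8 higher and 1 lower of 10, where 54% of all 11131 genes tested were called, 26.3% higher and 27.8% lower. iNKT17-like over iNKT2-like cells gave 3 higher and 2 lower of 10 at a background of 32.8% (15.4% higher and 17.4% lower), and iNKT17-like over iNKT1-like cells gave 3 higher and 4 lower of 10 at a background of 41.4% (21.1% higher and 20.4% lower). Calls were common among all genes in these contrasts, and each called member direction held in 4 of 4 libraries. For Itga4 in iNKT1-like over iNKT2-like cells the direction held by little in B6, at the levels above. The 3 contrasts share their class sums pairwise and are not independent.

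**Figure D2:**
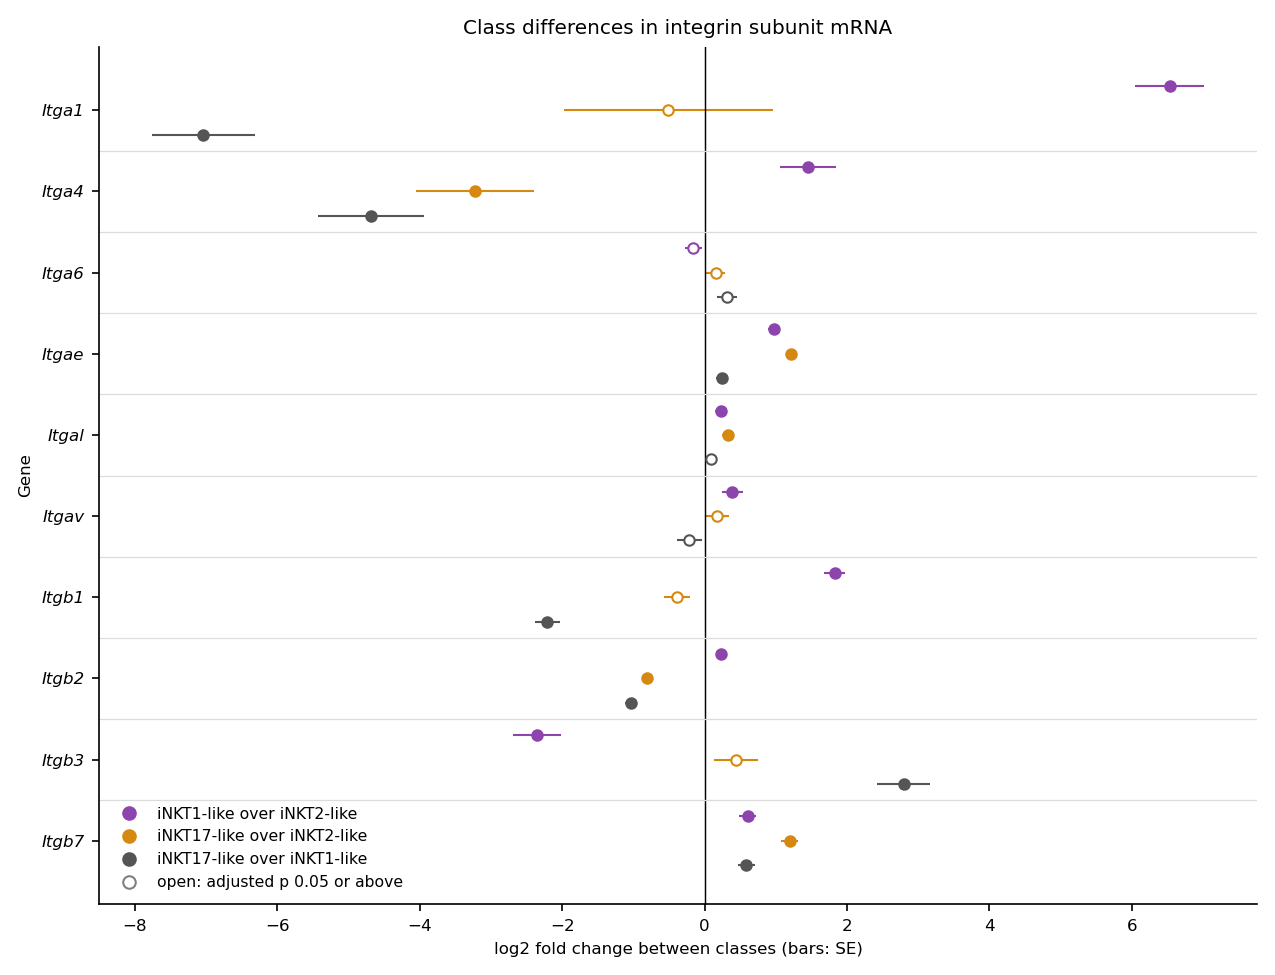
Log2 difference of each integrin subunit between classes from the edgeR fit over 12 class sums with the library as a block, with bars of 1 SE; filled points passed an adjusted p of 0.05. Itga1, Itga4 and Itgb1 lie far above 0 for iNKT1-like over iNKT2-like cells and far below 0 for iNKT17-like over iNKT1-like cells, and Itgb3 takes the opposite signs. The Itga4 difference of iNKT1-like over iNKT2-like cells lay mainly in BALB/c.

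Between strains, over all kept cells, 3 of 10 members were called, 1 higher and 2 lower in BALB/c, against 7.39% of the 12882 genes tested, 3.67% higher and 3.72% lower. Itga6 was higher in BALB/c, with 41.3 and 36.4 CPM in BALB/c against 18.0 and 22.0 CPM in B6, a log2 difference of 1.00 ± 0.13 (adjusted p = 0.0293). Itgb7 had 147.8 and 131 CPM in BALB/c and 228 and 244 CPM in B6, a log2 difference of -0.72 ± 0.09 (adjusted p = 0.0291). Itgb1 had 56.9 and 71.8 CPM in BALB/c and 122 and 119.8 CPM in B6, a log2 difference of -0.87 ± 0.14 (adjusted p = 0.0440). The libraries of the strains did not overlap for any of these 3 genes. All 3 calls were lost without BALB/c 1 (adjusted p between 0.332 and 0.362) and without BALB/c 2 (adjusted p between 0.183 and 0.316), fits in which BALB/c is a single library assumed to vary like B6. Besides Itga1 and Itgb3, treated next, the members not called were Itgb2 (-0.36, adjusted p = 0.0702), Itgav (-0.47, adjusted p = 0.151), Itgal (-0.36, adjusted p = 0.164), Itgae (0.14, adjusted p = 0.343) and Itga4 (0.04, adjusted p = 0.934).

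Sums over all cells mix the classes, and the part of their cell numbers in these values was not tested. Beside the classes with numbers above, they hold the proliferating class, with 51 and 81 cells in BALB/c against 82 and 182 in B6. They also hold cells of clusters left unnamed, 54 and 16 in BALB/c against 185 and 951 in B6. Among these, 1 cluster held 759 cells of B6 2 and 0 of BALB/c, at a median depth of 0.353 of the library's own. Itga1 had 14.6 and 32.9 CPM in BALB/c and 57.4 and 80.5 CPM in B6 over all cells (log2 -1.50 ± 0.43, adjusted p = 0.117), while within iNKT1-like cells BALB/c was above B6. Itgb3 had 89.2 and 59.6 CPM in BALB/c and 32.8 and 53.4 CPM in B6 over all cells (log2 0.82 ± 0.30, adjusted p = 0.168), while within iNKT1-like cells BALB/c was below B6. In such sums fewer cells of a class and less RNA of a gene per cell cannot be told apart. The strains were therefore compared within classes.

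Within iNKT1-like cells 4 of 10 members were called, 3 higher and 1 lower in BALB/c, against 4.58% of 10639 genes, 2.59% higher and 1.98% lower. Itga4 showed the largest difference of the members, with 105 and 84.1 CPM in BALB/c against 24.3 and 21.9 CPM in B6, a log2 difference of 2.06 ± 0.16 (adjusted p = 0.00164). Itga6 had 35.2 and 29.6 CPM in BALB/c and 14.0 and 17.9 CPM in B6 (1.03 ± 0.17, adjusted p = 0.0240), and Itga1, with the levels above, differed by 0.71 ± 0.14 (adjusted p = 0.0433). Itgb3 was lower in BALB/c (log2 -1.90 ± 0.40, adjusted p = 0.0498), on 6 and 27 UMIs in BALB/c against 146 and 977 UMIs in B6. The strains did not overlap for these 4 genes. Leaving out BALB/c 1 or BALB/c 2 kept each direction and ended each call: Itga4 then had log2 differences of 1.93 (adjusted p = 0.0934) and 2.20 (0.0954), Itga6 0.95 (0.240) and 1.15 (0.275), Itga1 0.78 (0.375) and 0.66 (0.485), and Itgb3 -1.59 (0.376) and -2.59 (0.371). Itgae lay higher in both BALB/c libraries without a call (0.56 ± 0.14, adjusted p = 0.0900). Itgb7 (-0.22, adjusted p = 0.362), Itgb1 (0.27, adjusted p = 0.241), Itgb2 (-0.28, adjusted p = 0.265), Itgal (-0.38, adjusted p = 0.196) and Itgav (0.14, adjusted p = 0.843) were not called. Itga4 stayed called with classes by highest marker score (1.86, adjusted p = 0.00166), where Itga6 (0.95, adjusted p = 0.0650), Itga1 (0.54, adjusted p = 0.115) and Itgb3 (-1.71, adjusted p = 0.0727) did not. At Leiden resolution 1.5 Itga1 (0.54, adjusted p = 0.137) and Itgb3 (-1.65, adjusted p = 0.106) lost the call.

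Within iNKT2-like cells 2 of 10 members were called, 1 in each direction, against 10.1% of 11782 genes (4.42% higher and 5.67% lower), a share close to the background and no result about the members as a group. They were the chains of the CD103 integrin, in opposite directions. Itgae was higher in BALB/c by a log2 difference of 0.60 ± 0.10 (adjusted p = 0.0216) and Itgb7 lower, at -0.89 ± 0.10 (adjusted p = 0.00871), with no overlap between strains for either. Without BALB/c 1 and without BALB/c 2 the values were 0.52 (adjusted p = 0.382) and 0.69 (0.217) for Itgae and -0.99 (0.142) and -0.79 (0.192) for Itgb7, so neither call held there. With cells assigned to the class of their highest marker score, Itgae changed sign (-0.24, adjusted p = 0.328) and Itgb7 stayed called (-0.74, adjusted p = 0.0109). Itga6 was higher in both BALB/c libraries without a call (0.61 ± 0.14, adjusted p = 0.0536), and the Itga1 difference of -3.10 ± 1.04 rests on the few UMIs given above (adjusted p = 0.133). Itgav (-0.42, adjusted p = 0.174), Itgb1 (-0.38, adjusted p = 0.213), Itga4 (-0.34, adjusted p = 0.380), Itgb2 (-0.10, adjusted p = 0.528), Itgal (-0.10, adjusted p = 0.548) and Itgb3 (0.07, adjusted p = 0.828) were not called either.

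Within iNKT17-like cells 8 of 10 members passed the filter on low counts, and Itga1 and Itga4 did not. Itga6 and Itgb3 were called, 2 of 8 and both higher in BALB/c, against 4.58% of 9372 genes (2.34% higher and 2.24% lower). Itga6 had 46.6 and 42.5 CPM in BALB/c and 18.0 and 19.1 CPM in B6, a log2 difference of 1.27 ± 0.21 (adjusted p = 0.0103). Itgb3, with the levels above, was higher in BALB/c by 0.88 ± 0.14 (adjusted p = 0.00782), the opposite sign of its difference in iNKT1-like cells. The strains did not overlap for either gene. The calls were lost without BALB/c 1 (Itga6 1.22, adjusted p = 0.111; Itgb3 0.93, adjusted p = 0.106) and without BALB/c 2 (1.31, adjusted p = 0.0539; 0.86, adjusted p = 0.120), and for Itga6 with DESeq2 (adjusted p = 0.0784). Itgae (0.55 ± 0.14, adjusted p = 0.0681) and Itgb7 (-0.51 ± 0.14, adjusted p = 0.0842) had the same signs as in iNKT2-like cells without passing the threshold. The remaining 4 were not called, Itgav at -0.59 (adjusted p = 0.367), Itgb1 at -0.25 (adjusted p = 0.636), Itgal at -0.07 (adjusted p = 0.851) and Itgb2 at -0.03 (adjusted p = 0.948).

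Across the 6 named classes with enough cells, both BALB/c libraries were above both B6 libraries for Itga6 in 6 of 6, and below them for Itgb7 in 6 of 6. Itga4 was above in 1 class, iNKT1-like cells, and below in 4, among them double-positive thymocyte-like cells. Those 4 include iNKT17-like cells, at 9 and 3 UMIs of Itga4 in BALB/c against 3 and 5 in B6. Itgae was above in 3 classes and below in 2, the latter on few UMIs. These were 2 and 2 in BALB/c against 5 and 9 in B6 iNKT0-like cells. In double-positive thymocyte-like cells they were 0 and 0 against 3 and 15. Itgb7 had only 10.8 and 6.19 CPM in BALB/c double-positive thymocyte-like cells. In iNKT0-like cells it had 15 and 16 UMIs in BALB/c against 15 and 71 in B6. Itga6 had 38 and 28 UMIs in BALB/c against 7 and 23 in B6 iNKT0-like cells. With 2 libraries of each strain, such a separation alone has an exact permutation p of 0.33. The share of all genes that separated in this way was not counted. The Itga6 gap was widest in double-positive thymocyte-like cells, with 350.4 and 227 CPM in BALB/c against 63.5 and 51.3 CPM in B6. That class again differs in its make-up: 1 of its clusters, at 207.7 and 216 CPM of Itga6, supplied 90 and 161 of the BALB/c cells and 7 and 1 of the B6 cells, and another, at 54.3 and 43.4 CPM, supplied 109 and 218 cells of B6 and 0 of BALB/c. In the cluster that both strains shared, BALB/c 1 had 614 CPM on 80 UMIs and B6 had 84.0 and 74.0 CPM.

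**Figure D3:**
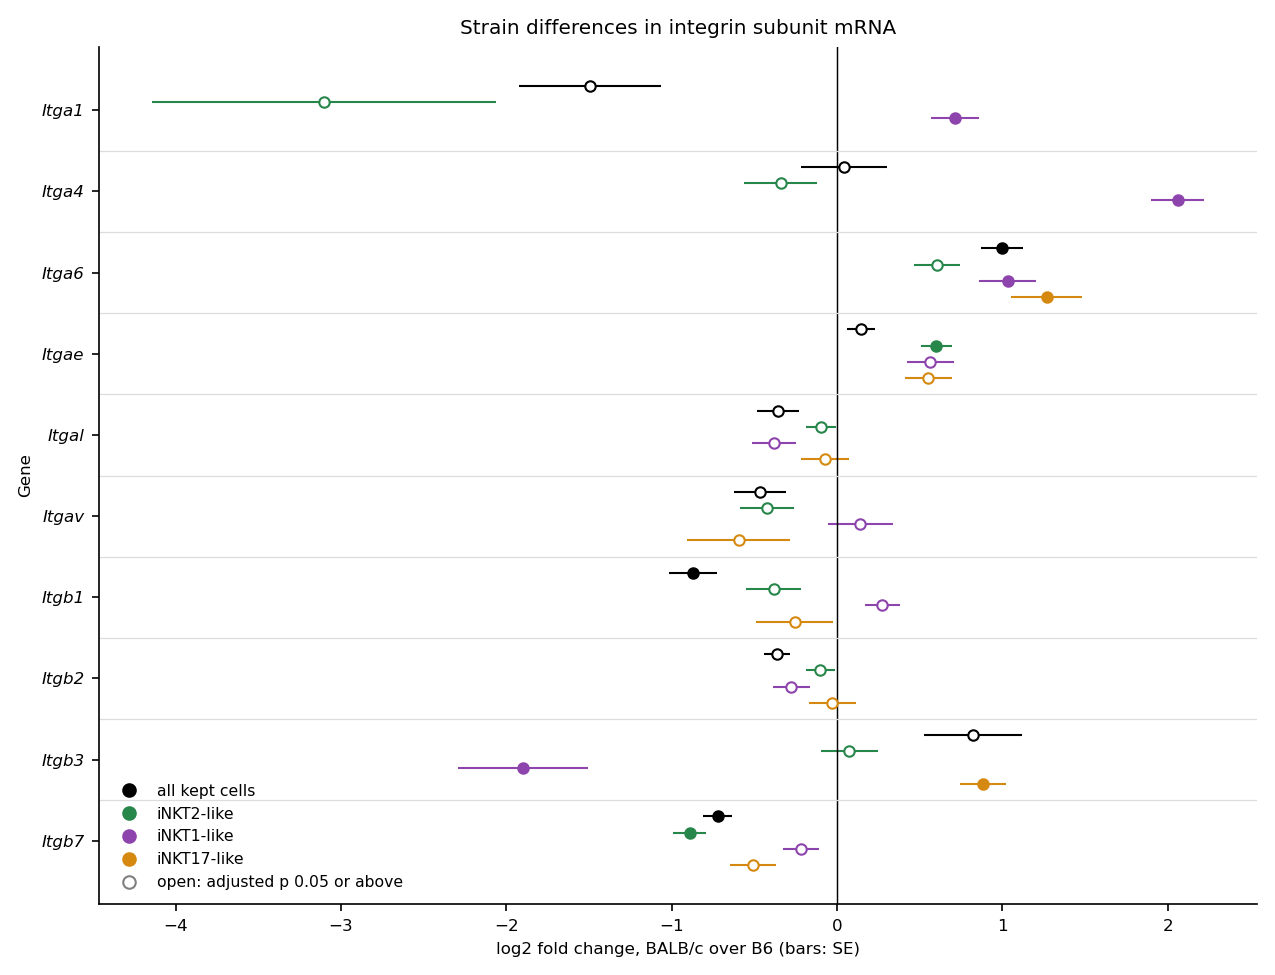
Log2 difference of BALB/c over B6 for each integrin subunit over all kept cells and within each of the 3 subsets, with bars of 1 SE; filled points passed an adjusted p of 0.05 in the edgeR fit. Itga6 lies above 0 and Itgb7 below 0 in all 4 comparisons, and Itgb3 lies below 0 in iNKT1-like cells and above 0 in iNKT17-like cells.

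Whether the strain difference itself differed between iNKT1-like and iNKT2-like cells was tested as an interaction over 8 class sums. It was called for 6 of 10 members, 4 of them positive, against 11.3% of 12235 genes (6.06% positive and 5.26% negative). The BALB/c over B6 difference was more positive in iNKT1-like cells for Itga4 (2.35 ± 0.17 log2 units, adjusted p = 3.90e-10), Itga1 (3.91 ± 0.51, adjusted p = 5.97e-06), Itgb7 (0.69 ± 0.09, adjusted p = 2.78e-06) and Itgb1 (0.58 ± 0.11, adjusted p = 0.000889). It was more negative there for Itgb3 (-1.93 ± 0.26, adjusted p = 9.83e-06) and Itgal (-0.30 ± 0.08, adjusted p = 0.0148). It was not called for Itgav (0.58, adjusted p = 0.0965), Itgb2 (-0.18, adjusted p = 0.0982), Itga6 (0.41, adjusted p = 0.110) or Itgae (-0.01, adjusted p = 0.991). Itga4 was thus high in iNKT1-like cells of BALB/c and not in their iNKT2-like cells, at 12.96 and 16.1 CPM in BALB/c and 22.9 and 17.6 CPM in B6. Without B6 2 the Itga1 value was 2.35 (adjusted p = 0.228), and the Itgal call was lost without BALB/c 2 (adjusted p = 0.133) and without B6 2 (0.411).

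The iNKT1-like class was made of different clusters in the strains, and integrin levels differed between those clusters. One cluster led by Ccl5 and Gzma, genes of a chemokine and a granzyme, held 252 and 570 of the BALB/c cells and 13 and 0 of the B6 cells. Another cluster led by Gzma and Ccl5 held 1 and 3 of the BALB/c cells and 305 and 1127 of the B6 cells. Over the class Gzma had 888 and 748 CPM in BALB/c and 387 and 282 CPM in B6, and Ccl5 had 3548 and 2277 CPM in BALB/c and 815 and 509 CPM in B6. Itga4 had 113 and 89.0 CPM in the BALB/c-rich cluster and 67.9 and 67.2 CPM in the B6-rich one. Within B6 it was between 8.19 and 25.7 CPM in the other iNKT1-like clusters. In the cluster both strains shared in numbers, with 28 and 38 cells in BALB/c against 1008 and 774 in B6, it had 25.0 and 15.3 CPM in BALB/c on 4 UMIs each, and 10.9 and 8.19 CPM in B6.

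A comparison restricted to these Gzma and Ccl5 led clusters was added after the data were seen. There 2 members were called, against 4.76% of 9637 genes, and they were none of the 4 called over the class. Itgb7 was lower in BALB/c, with 205 and 218 CPM in BALB/c against 358 and 367 CPM in B6 (log2 -0.75 ± 0.11, adjusted p = 0.00878). Itgb1 was also lower in BALB/c, with 197 and 183.5 CPM in BALB/c against 277 and 291 CPM in B6 (adjusted p = 0.0249), and its sign was opposite to that over the class. The strains did not overlap for either gene. Itga4 differed by 0.58 ± 0.14 (adjusted p = 0.0632), Itga6 by 0.59 (adjusted p = 0.121), Itgb3 by -0.55 (adjusted p = 0.559), Itgae by 0.06 (adjusted p = 0.887) and Itga1 by -0.03 (adjusted p = 0.933). Itgb2 (-0.17, adjusted p = 0.472), Itgal (-0.10, adjusted p = 0.779) and Itgav (0.14, adjusted p = 0.845) were not called. Itga1 stood at 163 and 177 CPM in BALB/c and 159.6 and 195 CPM in B6 in these clusters, and in the shared cluster at 143.8 and 64.9 CPM in BALB/c, on 23 and 17 UMIs, against 67.6 and 65.5 CPM in B6. A further cluster, not led by these genes, had 145.7 CPM of Itga1 in B6 2. How much of the class-wide strain differences comes from the clusters that make up the class was not tested further.

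**Figure D4:**
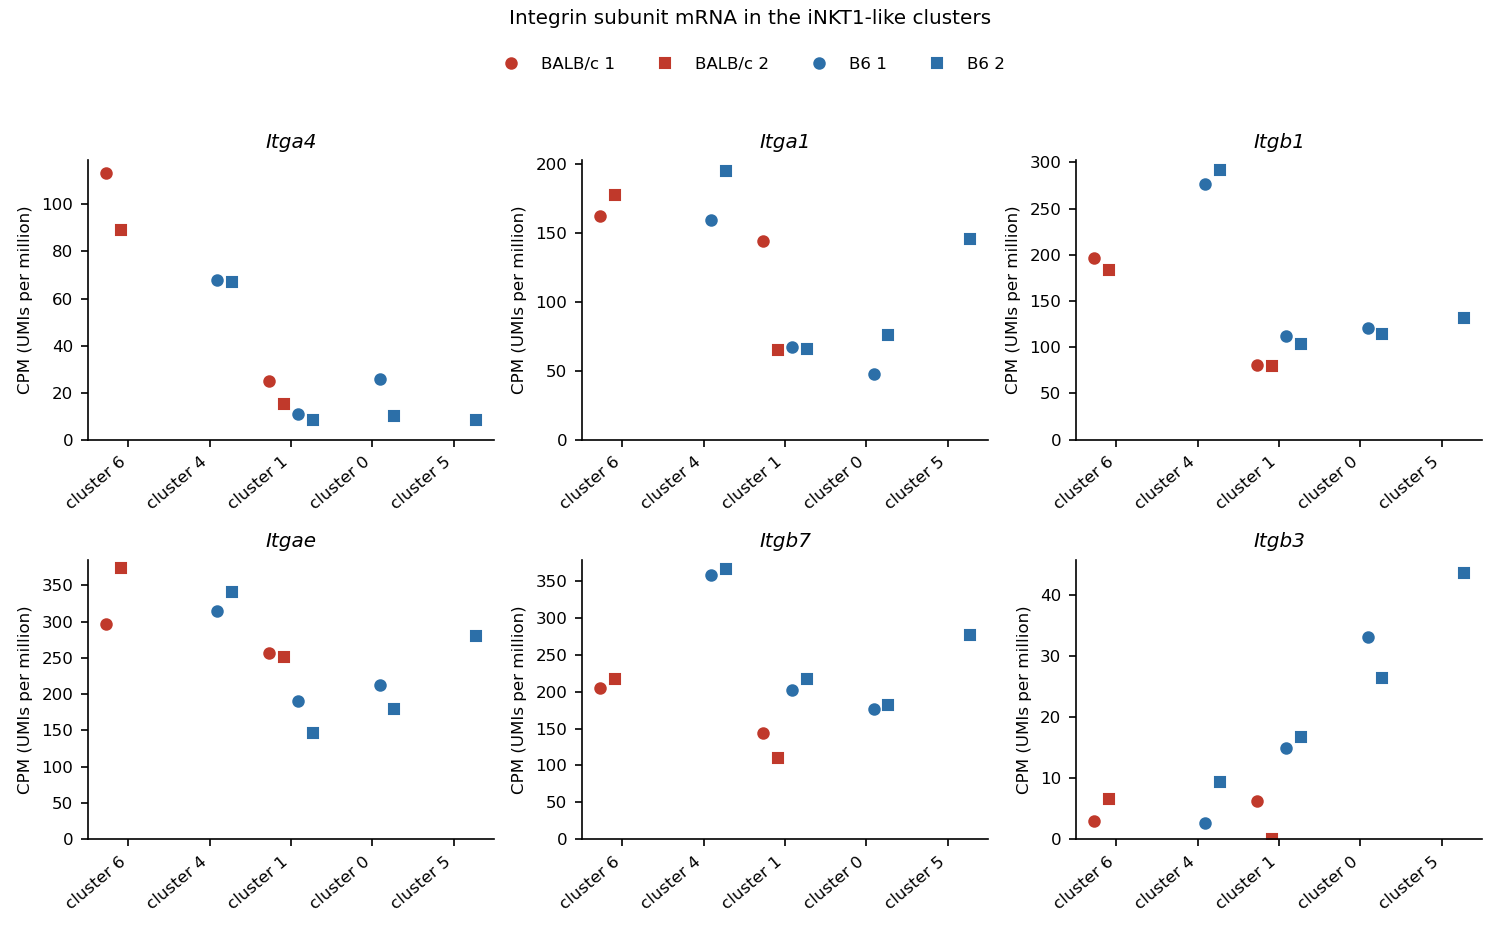
Level of integrin subunits in CPM in each cluster of the iNKT1-like class, with 1 point per library, BALB/c left of B6. Itga4, Itga1 and Itgb1 are highest in the clusters led by Gzma and Ccl5 in both strains, and Itgb7 is higher in the B6-rich than in the BALB/c-rich one of these clusters.

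Alpha and beta partners were read together as the ratio of their UMIs in a library, compared between libraries and not read as a ratio of proteins. For the CD103 integrin, Itgae over Itgb7 was 1.48 and 1.52 in BALB/c against 0.807 and 0.840 in B6 over all kept cells. Within iNKT1-like cells it was 1.47 and 1.73 in BALB/c against 0.927 and 0.938 in B6. Within iNKT2-like cells it was 1.59 and 1.62 in BALB/c against 0.565 and 0.575 in B6, and within iNKT17-like cells 1.41 and 1.38 in BALB/c against 0.667 and 0.671 in B6. The strains were apart in every one of these sets and the libraries of a strain were close, so that the log2 ratio differed by 0.87, 0.77, 1.49 and 1.06. With 2 libraries against 2, the smallest two-sided p that an exact permutation test can give is 0.33, and each of these comparisons gave it.

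For LFA-1, Itgal over Itgb2 was 0.643 and 0.608 in BALB/c against 0.580 and 0.666 in B6 over all cells, with overlapping strains (log2 difference 0.01, exact permutation p = 1). In iNKT17-like cells the ratio was 1.39 and 1.07 in BALB/c against 1.32 and 1.22 in B6, and every library there lay above its own iNKT1-like value. Those iNKT1-like values were 0.527 and 0.560 in BALB/c against 0.528 and 0.640 in B6. Itga4 over Itgb1 was 0.567 and 0.475 in BALB/c against 0.162 and 0.140 in B6 iNKT1-like cells, a log2 difference of 1.79 (exact permutation p = 0.33), whereas in iNKT2-like cells it differed by 0.02 with overlapping strains (exact permutation p = 1). Itga1 over Itgb1 was 0.872 and 0.963 in BALB/c against 0.587 and 0.768 in B6 iNKT1-like cells (log2 difference 0.45). Over all cells its sign was opposite, with 0.256 and 0.458 in BALB/c against 0.470 and 0.672 in B6 (log2 difference -0.72). Itga6 over Itgb1 was 0.726 and 0.507 in BALB/c against 0.147 and 0.183 in B6 over all cells, and Itgav over Itgb3 was 0.147 and 0.178 in BALB/c against 0.470 and 0.341 in B6, a log2 difference of -1.30. Within classes that difference was -0.50 in iNKT2-like and -1.43 in iNKT17-like cells. In iNKT1-like cells it was 2.20, with ratios of 5.67 and 2.33 in BALB/c, on 6 and 27 Itgb3 UMIs, against 0.993 and 0.629 in B6. All 8 pairs formed by these chains were compared, and no p could pass 0.05.

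**Figure D5:**
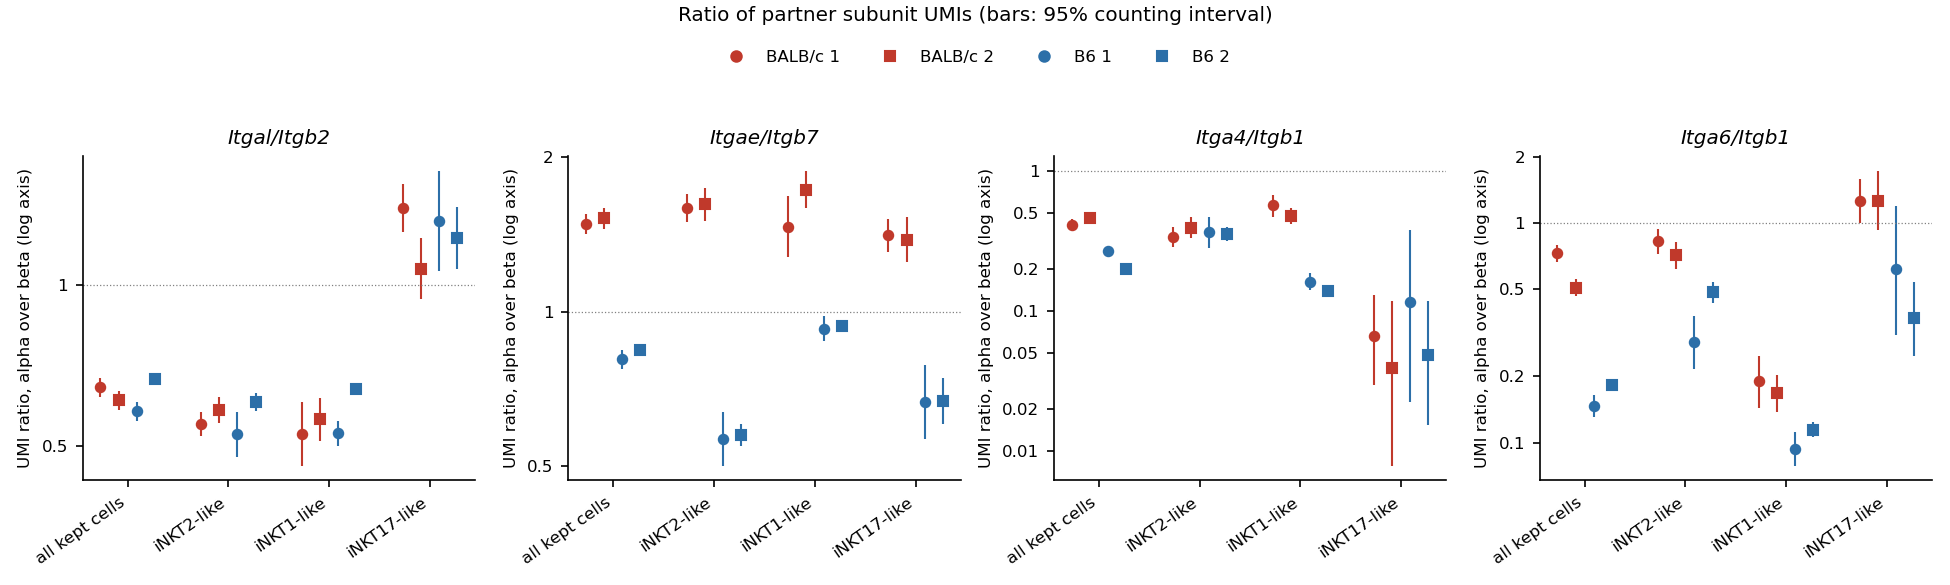
Ratio of alpha to beta subunit UMIs (log axis) for partner pairs in each subset, with 1 point per library, BALB/c left of B6. The Itgae over Itgb7 ratio is at least 1.38 in the BALB/c libraries and at most 0.938 in the B6 libraries of these subsets, while the Itgal over Itgb2 ratios of the strains overlap.

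Both partners were also looked for in the same cells, after each cell had been thinned to 4000 UMIs to put the libraries on 1 depth. Itgae and Itgb7 were seen together in 62.0% and 55.5% of BALB/c and 57.8% and 62.8% of B6 iNKT17-like cells. The shares were 25.3% and 34.5% in BALB/c against 28.8% and 30.1% in B6 iNKT1-like cells, 12.2% and 10.98% in BALB/c against 15.4% and 15.2% in B6 iNKT2-like cells. Only cells with at least 4000 UMIs enter these shares. In iNKT0-like cells both were seen in 0 of 53 and 0 of 55 such cells of BALB/c against 0 of 41 and 0 of 114 of B6. Those zeros allow shares of cells with a UMI of both of up to 5.66% and 5.45% in BALB/c against 7.32% and 2.63% in B6, and set no limit on cells that express them. As sequenced, 1 of 107 and 1 of 119 iNKT0-like cells of BALB/c against 1 of 93 and 1 of 184 of B6 had both. These orders follow the levels. If the chains were drawn independently within iNKT17-like cells, the product of the single shares would give 58.3% and 52.1% in BALB/c against 55.9% and 59.5% in B6, slightly below the joint shares. At the depth as sequenced the shares were 92.2% and 85.8% in BALB/c against 83.8% and 90.7% in B6, so most iNKT17-like cells yielded both transcripts.

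Itga1 and Itgb1 were seen together in 22.5% and 22.7% of BALB/c and 11.2% and 15.7% of B6 iNKT1-like cells after thinning, near the products of 21.8% and 22.1% in BALB/c against 10.4% and 13.8% in B6. As sequenced, the shares were 33.2% and 40.9% in BALB/c against 23.6% and 29.1% in B6. In iNKT17-like cells 0 of 316 and 0 of 182 cells in BALB/c against 0 of 64 and 0 of 156 in B6 had both. This allows at most 4.69% in the smallest set. Itga1 itself had 0 UMIs there in BALB/c 1, BALB/c 2 and B6 1, so the joint share in those libraries could only be 0. The amount of free RNA was not estimated. Itgal and Itgb2 were seen together in 33.2% and 32.8% of BALB/c and 42.1% and 51.9% of B6 iNKT1-like cells.

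Genes that act with integrins were read from 4 lists. From the list for the activation of integrins and their link to talin and kindlin, 26 genes were tested over all cells. Of these, 1 was higher and 3 were lower in BALB/c, where 3.67% of all genes were higher and 3.72% lower. DESeq2 called 8 of the list there. In iNKT2-like cells 2 of 26 were higher and 2 lower, where 4.42% of all genes were higher and 5.67% lower. In iNKT1-like and iNKT17-like cells 0 of 25 were called by edgeR or DESeq2, with 3 and 5 at an unadjusted p under 0.05. The higher one over all cells was Tln2, a talin, with 6.86 and 5.12 CPM in BALB/c against 0.051 and 0.256 CPM in B6 (log2 5.01, adjusted p = 0.0281). In iNKT2-like cells it had 9.95 and 8.54 CPM in BALB/c and 0.264 and 0.632 CPM in B6. Rasgrp2, an exchange factor that activates Rap1, was lower in BALB/c iNKT2-like cells (log2 -1.02, adjusted p = 0.0111), as was the actin crosslinker Flna (-0.58, adjusted p = 0.0170). Between subsets 14 were higher and 5 lower of 26 in iNKT1-like over iNKT2-like cells, where 26.3% of all genes were called higher and 27.8% lower. They were led by the focal adhesion protein Zyx (log2 1.54). In iNKT17-like over iNKT2-like cells 8 were higher and 6 lower, where 15.4% of all genes were called higher and 17.4% lower, led by Rasgrp1 (log2 2.05) and with Vcl, the vinculin gene, at 1.87. The median of the list was 0.22 against -0.00246 over all genes in the first and 0.03 against -0.02 in the second.

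Of the 19 ligand genes, between 3 and 8 passed the filter on low counts in a comparison. Over all cells 1 was called, as was 1 in iNKT1-like cells, where 7.39% and 4.58% of all genes were called. Both edgeR and DESeq2 called 0 among the iNKT2-like and 0 among the iNKT17-like cells, with 1 and 0 at an unadjusted p under 0.05. The one over all cells was Thbs1, which encodes thrombospondin, with 0.935 and 0.988 CPM in BALB/c against 0.0509 and 0.135 CPM in B6 (log2 3.15, adjusted p = 0.0417). Cdh1, which encodes the CD103 ligand E-cadherin, was itself found in iNKT1-like cells, with 45.1 and 54.5 CPM in BALB/c against 21.5 and 27.5 CPM in B6, a strain difference of 1.07 ± 0.17 (adjusted p = 0.0181). Over all cells its difference had the opposite sign and was not called (-0.87, adjusted p = 0.225). It was far lower in iNKT2-like cells, with a log2 difference of 3.72 ± 0.19 for iNKT1-like over iNKT2-like cells (adjusted p = 8.77e-08). Icam1, an LFA-1 ligand, was higher in iNKT1-like than in iNKT2-like cells by 1.67 (adjusted p = 2.91e-06).

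TGF-beta is known to induce Itgae in T cells, and 15 of 17 genes of its receptors and effectors were tested over all cells. There edgeR called 0 and DESeq2 called 4, and 7 had an unadjusted p under 0.05. In iNKT1-like and iNKT17-like cells 0 of 14 were called by either tool, with 4 in each at an unadjusted p under 0.05. In iNKT2-like cells 1 of 15 was called, where 10.1% of all genes were called, and 9 had an unadjusted p under 0.05. The called gene was Tgfb3, lower in BALB/c (log2 -2.82, adjusted p = 0.0184). Its levels there were low, at 0.286 and 0.342 CPM in BALB/c against 1.84 and 2.72 CPM in B6. In iNKT1-like over iNKT2-like cells 7 were higher and 4 lower of 15 (26.3% and 27.8% of all genes), among them Runx3, a transcription factor of cytotoxic T cells (log2 1.52), Smad7, an inhibitor of the pathway (1.18), the receptor gene Tgfbr1 (0.98) and Runx1 (-1.07).

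Of the other 18 integrin subunit genes, 9 passed the filter on low counts over all cells. Itgb4 and Itgb5 were found in iNKT17-like cells: Itgb4 had 4.38 and 2.63 CPM in BALB/c and 18.0 and 22.2 CPM in B6 (log2 -2.46 ± 0.37, adjusted p = 0.00648), and Itgb5 had 2.74 and 4.38 CPM in BALB/c and 18.0 and 21.2 CPM in B6 (-2.52 ± 0.39, adjusted p = 0.00662). Of 5 such genes tested between classes, 4 were higher in iNKT17-like than in iNKT2-like cells, where 15.4% of all genes were called higher: Itgb5 by 5.96, Itgb4 by 5.37, Itga5 by 2.36 and Itga3 by 1.92 log2 units. Itga2, another collagen receptor alpha chain, was lower in BALB/c iNKT2-like cells (log2 -2.77, adjusted p = 0.0129). Its levels there were low, at 0.501 and 0.683 CPM in BALB/c against 3.43 and 4.91 CPM in B6.

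Across the 12 sums of 3 subsets in 4 libraries, which share libraries and class make-up, the genes with the pattern most like a member were found by Pearson's r of log2(CPM + 1). For Itga1 they were Cd244a, Kcnj8 and Tigit (r of 0.99 each), and for Itgb1 they were Abcb1a, Ccl5 and Fcer1g (0.99 each). For Itgae they included Mier1 (0.97) and Clcn3, and they were for Itgb7 Cited4 (0.97), Ppm1k and Hgsnat, and for Itgb3 Rnf144a (0.97), Nav2 and Basp1. For Itga4 they were B3gnt2 (0.97), Xrn2 and Atp1b1, for Itga6 Prss41 (0.96), Akt2 and Rbm45, and for Itgal Cep250 (0.93), Ankmy2 and Ralgapb. For Itgb2 they were Hsf4 (0.98), Abcb9 and Tbc1d16, and for Itgav Zfp944 (0.93), Tiparp and Nup210. The lists of Itgae and Itgb7 shared 0 genes, as did those of Itgal and Itgb2 and those of Itga1 and Itgb1. With only 3 genes in a list, sharing 0 says nothing about a pair.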

How the data were processed

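For each of 4 libraries the authors deposited raw UMI counts by gene and barcode. Cell Ranger 7.1.0 and the build mm10 are named in the submitters' processing notes. Per the file headers, BALB/c 1, BALB/c 2 and B6 1 were made with Cell Ranger 6.0.0 and B6 2 with 7.1.0; no source used here says if intronic reads were counted. UMIs totalled 23124810 and 22798414 in BALB/c against 20406245 and 82904358 in B6, and counting intervals would cover counting error only. Of the 32285 gene identifiers, 32235 (99.8%) matched GENCODE on GRCm38 for positions.

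Barcodes were kept at 500 or more genes, 1000 or more UMIs and at most 10% mitochondrial UMIs. Those with the highest Scrublet doublet scores were dropped, at 0.8% per 1000 barcodes (33 and 34 in BALB/c, 50 and 758 in B6). Cells of all libraries were clustered together in scanpy 1.11.5 (2000 variable genes without integrin genes, 30 components, 15 neighbours, Leiden resolution 1). Clusters were named from lists of at least 5 markers, by log2 differences from the mean of the other clusters (pseudocount 5 CPM). The mean over a list had to be at least 0.3, and at least 40% of its markers had to exceed 0.5. The passing list of highest mean gave the name. A cluster of low depth stayed unnamed if none of that list's markers were among its top genes. It also stayed unnamed where markers of another class outnumbered its own there. The names are rebuilt and are not the authors'.

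UMIs were summed per library and class of at least 20 cells, and tested with edgeR 4.0.16 in R 4.3.3 (TMM scaling, filterByExpr, quasi-likelihood F-test, Benjamini-Hochberg adjustment over all genes tested, threshold 0.05). Class contrasts used 12 sums with the library as a block, and the interaction used 8 sums. Log2 differences come from these fits, with SE as the absolute log2 difference over the square root of F; CPM are UMIs per 1000000 UMIs of the cells summed. The script was tested on simulated counts. DESeq2 1.42.0, upper-quartile scaling, no low-count filter, all barcodes, other class definitions, replicate blocks and leaving out each library were the alternatives. Replicate numbers did not pair the libraries (correlation of deviations -0.234 over 12882 genes), so no block was used between strains. Ratios were tested with a two-sided exact permutation test.

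By the rule for named genes all 10 members are named in every comparison that tested them, up to 4 genes of lowest p from each pathway list could be named, and the 3 genes most like each member, of which 1 is not reported here. Members and lists were chosen with earlier results of these data known. Promoter windows are from RefSeq (GRCm38.p6).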

Additional observations from a re-analysis of the deposited data

Results flagged for a closer look

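For 6 of the 10 integrin subunits the BALB/c over B6 difference itself differed between iNKT1-like and iNKT2-like cells in edgeR's interaction test. The strain effect in iNKT1-like minus that in iNKT2-like cells was 3.91 log2 units for Itga1, 2.35 for Itga4, 0.69 for Itgb7 and 0.58 for Itgb1. It was -0.30 for Itgal and -1.93 for Itgb3. In Itga4 the 2 strain effects had opposite signs, 2.06 in iNKT1-like and -0.34 in iNKT2-like cells, and the iNKT2-like one was not called (adjusted p = 0.380). The Itga1 value rests on 0 and 7 UMIs in BALB/c and 3 and 73 UMIs in B6 iNKT2-like cells. The clusters that make up both classes also differed between strains, and their part in these values was not tested.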

How the results depend on the processing

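The members called between strains varied with the library left out and with the fit. Over all kept cells 3 were called in the reported analysis, 0 with the replicate block (5 at an unadjusted p under 0.05), 6 with DESeq2 and between 0 and 7 when 1 library was left out. In iNKT1-like cells 4 were called, 1 with classes by highest marker score, 2 at Leiden resolution 1.5, 2 in the Gzma and Ccl5 led clusters only, and between 0 and 8 when 1 library was left out. In iNKT2-like cells 2 were called, 5 with no low-count filter and between 0 and 5 when 1 library was left out. In iNKT17-like cells 2 were called, 5 with no low-count filter, 4 with the crossed replicate block, 1 with DESeq2, 4 with classes by highest marker score and between 0 and 4 when 1 library was left out. Each 0 with 1 library left out came without a BALB/c library, where between 2 and 5 members had an unadjusted p under 0.05. Member counts in the 3 class contrasts and the interaction stayed within 1.5 times under every alternative run.

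Signs turned for few single members. Of those called in the reported analysis, Itgae in iNKT2-like cells turned with classes by highest marker score (-0.24), where its interaction became 0.69, and Itga1 in iNKT1-like cells turned in the Gzma and Ccl5 led clusters (-0.035). The others, not called, were Itga4 over all cells (between -0.25 and 0.32 when 1 library was left out), Itgb1 in the Gzma and Ccl5 led clusters (-0.57), and, by the same range, Itgb3 in iNKT2-like cells (between -0.13 and 0.28), Itgb2 (between -0.10 and 0.064), Itgal (between -0.18 and 0.035) and Itgb1 (between -0.48 and 0.21) in iNKT17-like cells, and the Itgae interaction (between -0.31 and 0.21). Of the single-gene values under the other alternatives, 386 kept direction and call, 20 gained a call, 26 lost one and 4 turned; with 1 library left out the numbers were 245, 22, 35 and 9. The cause was not tested.

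Counts over all genes moved too. Over all cells 952 genes were called, 38 with the replicate block, 1766 with DESeq2, 0 without either BALB/c library (1386 and 1641 at an unadjusted p under 0.05), 5166 without B6 1 and 1830 without B6 2. In iNKT1-like cells 487 were called, 798 with the replicate block, 1364 with no filter, 25 and 2 without BALB/c 1 and BALB/c 2, and 3545 and 1564 without B6 1 and B6 2. In iNKT2-like cells 1189 were called, 2872 with no filter, 78 and 145 without BALB/c 1 and BALB/c 2, and 5750 and 2781 without B6 1 and B6 2. In iNKT17-like cells 429 were called, 671 with the replicate block, 1091 with no filter, 240 with DESeq2, 184 and 201 without BALB/c 1 and BALB/c 2, and 1680 without B6 1. With the pairing of replicate numbers crossed the counts were 777, 660, 679 and 768. Without the library block the class contrasts called 3752 in place of 6012, 1946 in place of 3650 and 3025 in place of 4612. The interaction called 1384, and 859 without BALB/c 2.

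Depth limits the joint shares: thinned to 2000 in place of 4000 UMIs, the mean share over libraries was 17.4% in place of 39.96% for Itgal with Itgb2 and 6.28% in place of 18.0% for Itga1 with Itgb1 in iNKT1-like cells. For Itgae with Itgb7 it was 14.5% in place of 29.7% in iNKT1-like and 27.8% in place of 59.5% in iNKT17-like cells. B6 2, the library made with another Cell Ranger version, exceeded B6 1 by a log2 ratio of 0.69 for Itgb3 and 0.48 for Itga1 over all cells, where genes of like intron length had a median of 0.42. The other members with introns of that length lay below this median, Itga6 at 0.28, Itgav at 0.23 and Itga4 at -0.42.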
